A study of Mus musculus with 16 samples.

Results

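The skeletal and cardiac muscle microRNAs mmu-miR-1a-3p, mmu-miR-133a-3p, mmu-miR-133a-5p, mmu-miR-133b-3p and mmu-miR-206-3p were followed in extracellular vesicles (EVs) of mouse bone marrow plasma. The prefix mmu, for mouse, is left out below. They were taken by name from the deposited table of mature microRNA counts and are 5 of its 1915 entries. EVs are membrane-bound particles that cells release with a cargo of RNA and protein. All mice were 6-month-old C57BL/6N animals that carried the CAGS-Snorkel allele, whose tagged product let EVs be pulled out of plasma with HA antibody on magnetic beads. In 6 mice (3 male and 3 female) the allele was combined with Ocn-Cre, a recombinase driven by osteocalcin regulatory sequence, used in mature cells of the osteoblast lineage. In the other 10 (5 male and 5 female) it was combined with Prx1-Cre, which marks limb bud mesenchyme and its later progeny. The groups are called Ocn and Prx1 here, and each library is named by its group and number. Libraries from mice without Cre, from unselected plasma or from muscle were not analysed here, so these levels have no background measured beside them. Capture follows the cell that made the tag, and EVs of other cells that stay on the beads cannot be told apart in these counts.

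miR-1, miR-133 and miR-206 are the best known microRNAs of striated muscle. miR-1 and miR-133a are made from shared primary transcripts of paired loci and act in both heart and skeletal muscle, where miR-1 favours differentiation and miR-133 favours proliferation of myoblasts. miR-206 and miR-133b come from a further shared locus that is active in skeletal muscle, and miR-206 has the same seed as miR-1. In bone, miR-133a is known to target Runx2, the master transcription factor of osteoblasts, and miR-206 to target the gap junction gene Gja1.

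The sequences of the pair that share the skeletal locus are shown with bases 2 to 8, the seed by which a microRNA recognises its targets, in capitals. They are from the RefSeq-derived table for build GRCm38.p6, which matched 2 of the 5 entries by name. They show that products of a single locus carry unlike seeds.
miR-206-3p: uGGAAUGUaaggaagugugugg
miR-133b-3p: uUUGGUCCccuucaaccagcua
The hairpins are shown next with the counted 3p arm in capitals, since the opposite arm of each had 0 counts in every library.
Mir206: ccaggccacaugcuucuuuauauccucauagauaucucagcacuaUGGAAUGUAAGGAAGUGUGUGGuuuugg
Mir133b: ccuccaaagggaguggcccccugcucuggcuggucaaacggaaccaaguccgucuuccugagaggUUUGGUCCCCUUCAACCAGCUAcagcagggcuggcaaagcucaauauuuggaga
Mir206 lies on the plus strand of mouse chromosome 1 (chr1:20679010-20679082) and Mir133b on the same strand (chr1:20682769-20682887). Between them are 3686 bases, and both lie in exons of the lincRNA Gm28653 in the GENCODE annotation of GRCm38. Mir1a-1 (chr2:180389048-180389124) and Mir133a-2 (chr2:180398379-180398482) lie on the plus strand of chromosome 2 with 9254 bases between them. No other annotated gene contains either hairpin in full, and genes over only a part of them were not searched for. miR-1a-3p and miR-133a-3p are each also made from a further hairpin, Mir1a-2 and Mir133a-1, and counts of the 3p arms do not separate the hairpins.

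Ocn libraries had between 582660 and 1536421 counts and Prx1 libraries between 225273 and 813770. The groups thus differed in depth, and the ranges shared only totals from 582660 to 813770, held by Ocn 1, Ocn 3, Ocn 6, Prx1 8 and Prx1 9. Each level below is given as CPM, the count divided by the library total and scaled to 1000000. The 2 least abundant entries rest on few counts, 2 to 98 for miR-133a-5p and 11 to 139 for miR-133b-3p, and their counting error is a large part of each value.

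The muscle entries took 6.15% ± 1.09 of an Ocn library (SD, n = 6) and 5.43% ± 1.10 of a Prx1 library (SD, n = 10). The sum ran from 4.68% in Ocn 6 to 7.75% in Ocn 5, and from 3.99% in Prx1 9 to 7.08% in Prx1 7, so the groups overlapped over most of their range. miR-1a-3p held most of it, with 78.4% ± 3.8 of the 5 entries' counts in Ocn and 67.4% ± 6.2 in Prx1. Ligation of adaptors is known to favour some microRNAs over others, so the order of levels between entries is an order of counts and not of molecules.

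miR-1a-3p was the most abundant muscle microRNA in each of the 16 libraries. In Ocn it ran from 34766 CPM (Ocn 6) over a median of 48161 to 61048 CPM (Ocn 5), and in Prx1 from 23003 CPM (Prx1 9) over a median of 37038 to 55648 CPM (Prx1 7). It stood at ranks 5 to 7 of all entries in Ocn and 7 to 10 in Prx1. Of the Ocn libraries 5 of 6 lay above the Prx1 mean, and 5 of the Prx1 libraries lay below every Ocn library, with overlap between the groups.

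miR-206-3p, the form made in skeletal muscle, came second in all 6 Ocn libraries and in 8 of 10 Prx1 libraries. It ran from 6160.5 CPM (Ocn 2) over a median of 8369 to 14278 CPM (Ocn 4) in Ocn. In Prx1 it ran from 4189 CPM (Prx1 2) over a median of 12352 to 15029 CPM (Prx1 1). The exceptions to the order were Prx1 2 and Prx1 3, where miR-133a-3p had more counts than miR-206-3p. miR-206-3p was also among the most variable abundant microRNAs. Its SD of log2 CPM was 0.48 in Ocn and 0.61 in Prx1, rank 4 and rank 2 among 61 entries with a mean of at least 1000 CPM, whose median SDs were 0.25 and 0.22. Those of miR-1a-3p were 0.23 and 0.43, and those of miR-133a-3p were 0.22 and 0.39. These spreads are descriptions, on TMM-scaled totals, and were not tested.

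miR-133a-3p, the main product of the Mir133a hairpins, ran from 2989.7 CPM (Ocn 3) over a median of 3742 to 4757 CPM (Ocn 5) in Ocn. In Prx1 it ran from 3449 CPM (Prx1 6) over a median of 5385 to 8772 CPM (Prx1 2). All 6 Ocn libraries lay below the Prx1 median, 8 of 10 Prx1 libraries lay above every Ocn library, and the groups overlapped through Prx1 6 and Prx1 9. miR-133b-3p, nearly identical to it, ran from 39.5 CPM (Ocn 3) over a median of 57.6 to 90.5 CPM (Ocn 5) in Ocn. Its values in Prx1 ran from 39.1 CPM (Prx1 6) over a median of 115 to 185 CPM (Prx1 3). Here too all 6 Ocn libraries lay below the Prx1 median, and 7 Prx1 libraries lay above every Ocn library, while Prx1 6 lay just below them all.

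miR-133a-5p, the opposite arm of the Mir133a hairpins, had the lowest level in 14 of the 16 libraries. It ran from 17.2 CPM (Ocn 3) over a median of 57.6 to 84.3 CPM (Ocn 1) in Ocn, and from 8.88 CPM (Prx1 4) over a median of 29.1 to 53.6 CPM (Prx1 8) in Prx1. The exceptions were Ocn 1 and Ocn 6, where miR-133b-3p was lower still. The value of Prx1 4 rests on 2 counts, with a 95% Wilson interval of 2.43 to 32.4 CPM, and that of Ocn 3 on 10 counts, with an interval of 9.32 to 31.6 CPM. In Ocn the levels of miR-133b-3p and miR-133a-5p were 60.0 ± 17.9 and 56.5 ± 23.7 CPM (SD, n = 6). In Prx1 they were 116 ± 45 and 31.6 ± 14.1 CPM (SD, n = 10). The levels of these entries were not tested against each other within a group.

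**Figure D1:**
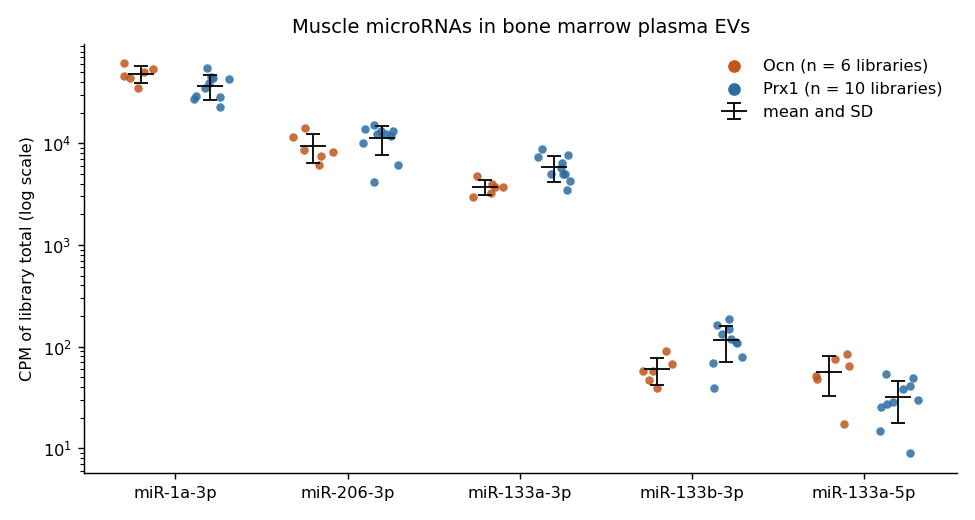
Level of each muscle microRNA in CPM of the library total (log axis) by group, with a point for each library and black bars for the mean and SD. The miR-133a-3p and miR-133b-3p points of Ocn sit below most Prx1 points, while those of miR-1a-3p and miR-206-3p overlap, and the low Prx1 point of miR-206-3p is Prx1 2 at 4189 CPM.

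The first comparison asked whether the muscle microRNAs differed between EVs captured through the osteoblast driver and those captured through the limb mesenchyme driver. The members of the miR-133 3p family were lower in Ocn and the others did not pass the test. miR-133a-3p had 3743 ± 621 CPM in Ocn (SD, n = 6) against 5869.8 ± 1661.3 in Prx1 (SD, n = 10), and was 1.60-fold higher in Prx1. For miR-133b-3p the means were 60.0 and 116 CPM, and it was 1.94-fold higher in Prx1. Of the 5 entries 2 were lower in Ocn and 0 higher, where 7.69% of the 234 tested microRNAs were called lower, 5.98% higher and 13.7% in either direction. The 2 called entries, miR-133a-3p and miR-133b-3p, are near-identical and may share reads, so they may not be separate observations. For none of the 5 were the groups free of overlap, as they were for 3.85% of the tested microRNAs.

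The log2 fold change of Ocn over Prx1 was -0.68 (SE 0.16) for miR-133a-3p (edgeR adjusted p = 0.00819) and -0.96 (SE 0.24) for miR-133b-3p (edgeR adjusted p = 0.0101). miR-1a-3p had 0.34 (SE 0.17, edgeR adjusted p = 0.187), miR-133a-5p had 0.77 (SE 0.30, edgeR adjusted p = 0.0883) and miR-206-3p had -0.29 (SE 0.24, edgeR adjusted p = 0.487). The value of miR-206-3p moved with single libraries left out, to -0.50 without Ocn 4, -0.17 without Ocn 3 and -0.16 without Ocn 2. Products of a shared locus thus stood at values of opposite sign for miR-1a-3p and miR-133a-3p, and of the same sign for miR-206-3p and miR-133b-3p. The median of the 5 was -0.29, beside 0.01 over all tested. With each library left out in turn, both calls held, with edgeR adjusted p of at most 0.0289 for miR-133a-3p and 0.0323 for miR-133b-3p. miR-133a-5p passed without Ocn 3 (0.998, edgeR adjusted p = 0.0114) or without Prx1 8 (0.98, edgeR adjusted p = 0.0267).

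Depth limits this comparison. With the log10 total entered as a covariate the log2 fold change was -0.66 (SE 0.27, edgeR adjusted p = 0.191) for miR-133a-3p and -1.24 (edgeR adjusted p = 0.0869) for miR-133b-3p. In that fit 0 of all tested microRNAs were called and 40 had an unadjusted p under 0.05, so the group and the depth cannot be fully told apart. The split of 14 higher and 18 lower calls became 26 and 11 with upper quartile factors, which moved the median log2 fold change of all tested from 0.01 to 0.13. Under those factors miR-133a-3p stayed lower in Ocn at -0.53 (edgeR adjusted p = 0.0220).

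miR-133a-3p and miR-133b-3p differ at their last base, and how reads without that base were assigned is not given in the sources used here. Summed into 1 entry, they had a log2 fold change of -0.69 (SE 0.17, edgeR adjusted p = 0.00815), close to that of miR-133a-3p alone, which supplies nearly all of the sum. Whether the difference in miR-133b-3p is its own was not tested.

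**Figure D2:**
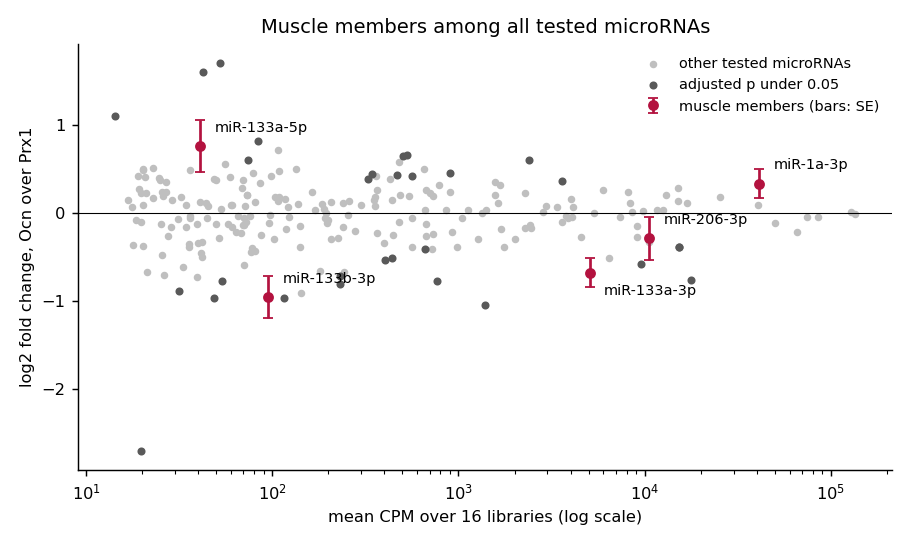
Log2 fold change of Ocn over Prx1 against mean CPM (log axis) for the 234 tested microRNAs, with the muscle entries in red and bars of 1 SE. Below 0 are miR-133b-3p (-0.96), miR-133a-3p (-0.68) and miR-206-3p (-0.29), and above 0 are miR-133a-5p (0.77) and miR-1a-3p (0.34).

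The second comparison set the products of each shared locus against each other inside a library, which needs no scaling between libraries. Each Ocn library held more miR-1a-3p per miR-133a-3p than the average Prx1 library. The ratio of counts ran from 9.29 (Ocn 6) over a median of 12.2 to 18.0 (Ocn 3) in Ocn, and from 3.31 (Prx1 2) over a median of 5.63 to 13.0 (Prx1 6) in Prx1. All 6 Ocn libraries were above the Prx1 mean, 2 of them above every Prx1 library, and 8 of 10 Prx1 libraries were below every Ocn library. Prx1 6 and Prx1 7, at 13.0 and 11.1, lay within the Ocn range.

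On the log2 scale the miR-1a-3p to miR-133a-3p ratio averaged 3.68 (SD 0.34) over 6 Ocn libraries and 2.66 (SD 0.65) over 10 Prx1 libraries. The difference of 1.02, a 2.03-fold higher ratio in Ocn, had an exact 2-sided permutation p of 0.00475 over 8008 splits (0.0237 adjusted over the 5 ratios tested). Its adjusted exact p was 0.0583 without Ocn 3 and 0.0533 without Ocn 4, with differences of 0.93 and 0.97. In the 5 libraries of overlapping depth the ratio was 3.64 on the log2 scale in 3 Ocn and 2.78 in 2 Prx1 libraries, a difference of 0.85. The groups did not overlap there, with Ocn from 3.22 and Prx1 up to 3.15, but 3 against 2 cannot give an exact p below 0.10 (exact permutation p = 0.20).

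miR-206-3p and miR-133b-3p, the products of the skeletal locus, gave a ratio of 106 (Ocn 2) to 250.2 (Ocn 4) with a median of 151 in Ocn. In Prx1 the ratio ran from 25.6 (Prx1 2) over a median of 109.5 to 338 (Prx1 6). The Prx1 libraries thus spanned the whole Ocn range, with 4 below it and 1 above it. Prx1 2 and Prx1 3, at 25.6 and 33.3, stood below all others, the next being 91.8 in Prx1 4. The log2 ratio was 7.26 ± 0.46 in Ocn and 6.61 ± 1.08 in Prx1, a difference of 0.65 that did not pass (exact permutation p = 0.188, adjusted p = 0.235). With miR-133a-3p and miR-133b-3p summed as the denominator it was 0.39 (exact permutation p = 0.371). The miR-133b-3p count may hold reads of the near-identical miR-133a-3p, which was not tested, so the ratio may not be of products of the skeletal locus alone. The difference of 0.65 had the direction of the first ratio, but the denominators of these ratios varied together in Prx1, so it is not separate support. On the log2 scale all 6 Ocn libraries were above the Prx1 mean, which the low values of Prx1 2 and Prx1 3 draw down. Ocn 2, at 106, lay below the Prx1 median of 109.5.

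The members that share a seed or nearly a whole sequence were compared in the same way. miR-206-3p over miR-1a-3p, the skeletal form over the general one of the same seed, ran from 0.139 (Ocn 3) over a median of 0.187 to 0.284 (Ocn 4) in Ocn. In Prx1 it ran from 0.144 (Prx1 2) over a median of 0.306 to 0.542 (Prx1 9), and 6 of 10 libraries lay above every Ocn library. The log2 difference of -0.64 did not pass (exact permutation p = 0.0393, adjusted p = 0.0983), and without Prx1 2 it was -0.75 (adjusted exact p = 0.0280). For 1 count of miR-133b-3p there were 52.6 to 79.6 counts of miR-133a-3p in Ocn and 39.3 to 88.3 in Prx1. The difference of -0.27 in the log2 ratio of miR-133b-3p over miR-133a-3p did not pass (exact permutation p = 0.131, adjusted p = 0.219). miR-1a-3p over miR-133a-5p had a difference of -0.37 (exact permutation p = 0.375, adjusted p = 0.375), which was -0.71 without Ocn 3, -0.22 without Ocn 1 and -0.17 without Ocn 6. In the 5 libraries of overlapping depth, miR-133b-3p over miR-133a-3p differed by -0.73 in place of -0.27, with Ocn up to -5.86 and Prx1 from -5.49. miR-206-3p over miR-1a-3p differed there by -1.05 in place of -0.64, with Ocn up to -2.09 and Prx1 from -1.92. Neither pair of groups overlapped, and each had the smallest exact permutation p that 3 against 2 allow (0.10). For miR-206-3p over miR-133b-3p the groups did not overlap there either, with a difference of 0.53 (exact permutation p = 0.20). These ratios share members, and 3 against 2 libraries can readily separate by chance, so no conclusion is drawn from the lack of overlap.

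**Figure D3:**
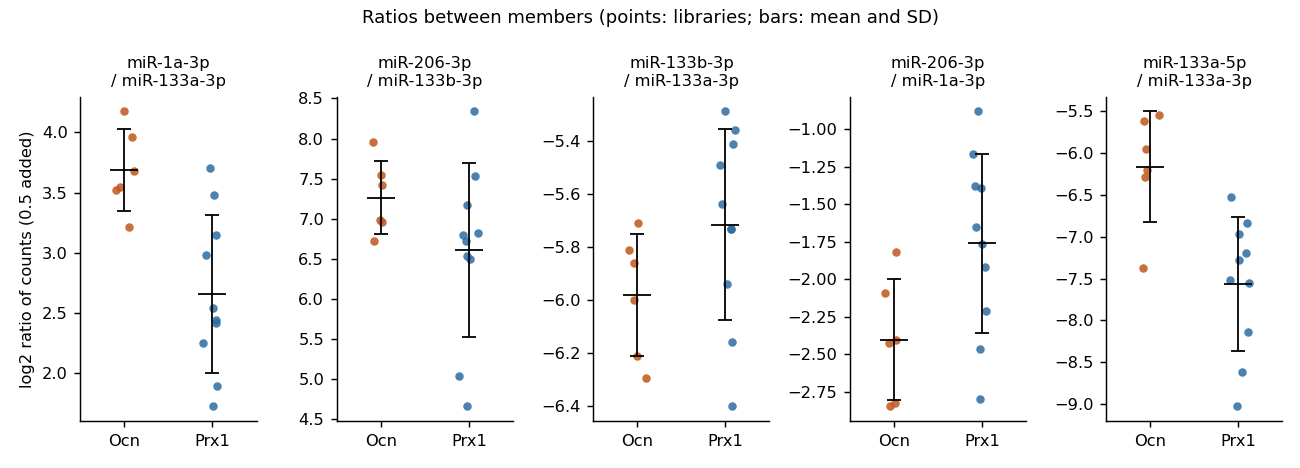
Log2 ratio of counts between pairs of muscle microRNAs in each library (points), with mean and SD (black bars), each panel on its own scale. The ratio of miR-1a-3p to miR-133a-3p is 3.68 on average in Ocn and 2.66 in Prx1, and that of miR-206-3p to miR-133b-3p spreads over a wider range in Prx1 than in Ocn.

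The third comparison set the arms of the Mir133a hairpins against each other, since 1 arm was lower in Ocn and the other was not. There were 47.5 to 174 counts of miR-133a-3p for each count of miR-133a-5p in Ocn, with a median of 68.7, and 93.4 to 649 in Prx1, with a median of 174. The 5p share was higher in 5 of 6 Ocn libraries than in every Prx1 library, and Ocn 3 was the exception. On the log2 scale the 5p to 3p ratio averaged -6.17 (SD 0.66) over 6 Ocn libraries and -7.56 (SD 0.80) over 10 Prx1 libraries, a difference of 1.39 (SE 0.35, limma adjusted p = 0.0120). The arm ratio was called in 6.82% of the 44 hairpins tested, whose median difference was 0.07, and Mir133a ranked 3 by p. With log10 of the total as a covariate the difference was 0.80 (SE 0.52, limma adjusted p = 0.523). In the libraries of overlapping depth it was 0.72, from -6.19 in Ocn and -6.90 in Prx1, with overlap between the groups.

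Within a group, neither of the ratios that differed showed a relation to depth that passed. The miR-1a-3p to miR-133a-3p ratio had a Pearson r with log10 of the total of -0.02 in Ocn (exact permutation p = 0.967, n = 6) and 0.01 in Prx1 (permutation p = 0.979, n = 10). Its Spearman rho was -0.09 (exact permutation p = 0.919) and -0.03 (permutation p = 0.945). Without the 2 libraries farthest from the median total, r was 0.60 and -0.06. The arm ratio had r of 0.09 in Ocn (exact permutation p = 0.893, n = 6) and 0.49 in Prx1 (permutation p = 0.141, n = 10), with rho of -0.09 (exact permutation p = 0.919) and 0.27 (permutation p = 0.448). Without the 2 farthest libraries its r was -0.95 and 0.40. With counts thinned to the smallest library total, r of the arm ratio with log10 of the original total was 0.61 in Ocn (exact permutation p = 0.188, adjusted p = 0.550). In Prx1 it was then 0.58 (permutation p = 0.0714, adjusted p = 0.429). Both were positive, and a relation of the arm ratio to depth is thus not excluded. Over the 12 relations of 6 ratios in the groups, on counts that were not thinned, the smallest adjusted p was 0.633 for Pearson and 0.290 for Spearman, by permutation. The latter was miR-1a-3p over miR-133a-5p in Prx1 (rho of -0.72, unadjusted permutation p = 0.0242; r of -0.56, permutation p = 0.0892, and -0.50 without the 2 farthest).

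**Figure D4:**
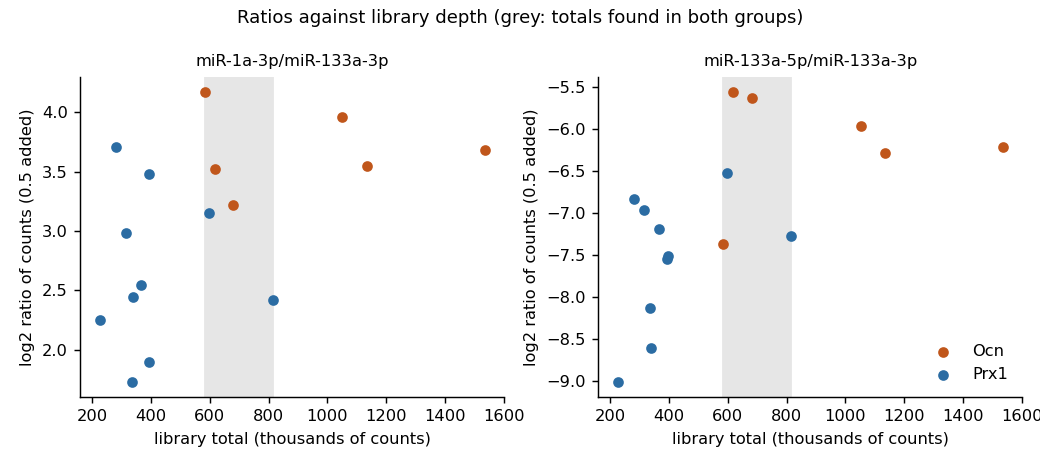
Log2 ratio of counts against the library total for miR-1a-3p over miR-133a-3p (left) and miR-133a-5p over miR-133a-3p (right), with a point for each library. The grey band marks totals from 582660 to 813770 counts, found in both groups, which hold 3 Ocn and 2 Prx1 points.

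The fourth comparison asked whether members varied together from library to library within a group. The near-identical miR-133a-3p and miR-133b-3p did in Prx1, while in Ocn their relation did not pass after adjustment. The products of a shared locus gave no relation that passed. In Prx1, log2 CPM of miR-133a-3p and miR-133b-3p had a Pearson r of 0.87 (permutation p = 0.00089, adjusted p = 0.00712) and a Spearman rho of 0.93 (permutation p = 0.00038, adjusted p = 0.00304; n = 10). Without the 2 libraries farthest from the median r was 0.75. In Ocn r was 0.87 (exact permutation p = 0.0319, adjusted p = 0.128) and rho 0.94 (exact permutation p = 0.0167, adjusted p = 0.0667; n = 6), and r fell to 0.29 without the 2 farthest, so it rests on them. How many reads these entries share was not tested.

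miR-1a-3p and miR-133a-3p had r of 0.13 in Ocn (exact permutation p = 0.815, n = 6) and -0.28 in Prx1 (permutation p = 0.424, n = 10), with rho of 0.09 (exact permutation p = 0.919) and -0.28 (permutation p = 0.427). Without the 2 farthest libraries r was -0.90 and -0.61. miR-206-3p and miR-133b-3p had r of 0.42 in Ocn (exact permutation p = 0.401) and -0.50 in Prx1 (permutation p = 0.139), with rho of 0.37 (exact permutation p = 0.497) and -0.38 (permutation p = 0.280), and r of 0.05 and 0.08 without the 2 farthest. The negative value in Prx1 thus rests on Prx1 2 and Prx1 3, which were lowest in miR-206-3p and among the highest in miR-133b-3p. miR-1a-3p and miR-206-3p had r of 0.44 in Ocn (exact permutation p = 0.382) and 0.32 in Prx1 (permutation p = 0.371), with rho of 0.43 (exact permutation p = 0.419) and 0.14 (permutation p = 0.706), and r of 0.39 and 0.63 without the 2 farthest. Of the 8 relations of this family, the adjusted p of these 6 was at least 0.370 for r and 0.663 for rho (by permutation). All levels share the library total as denominator.

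**Figure D5:**
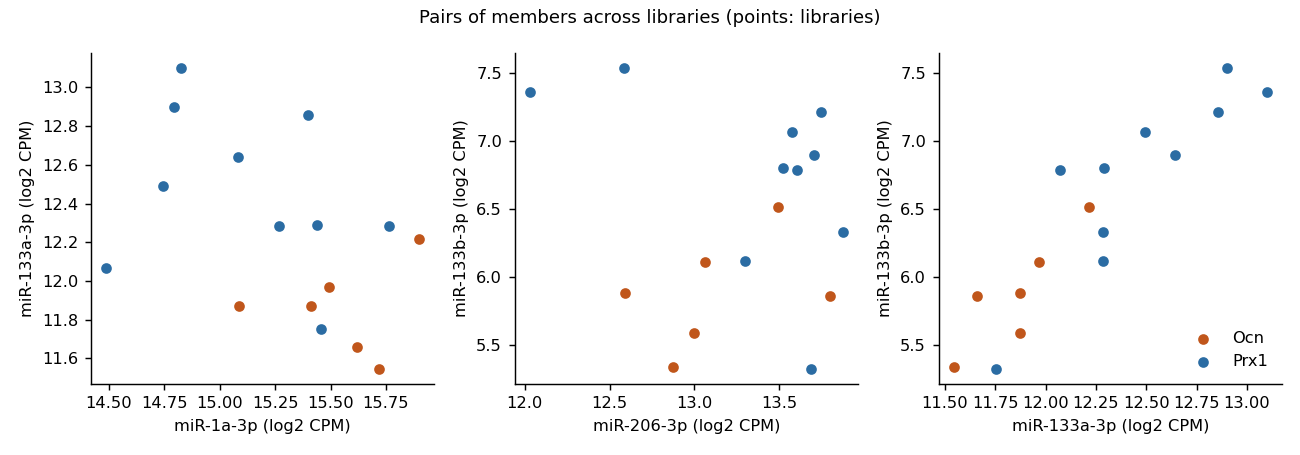
Log2 CPM of pairs of muscle microRNAs, with a point for each library. The points of miR-133a-3p and miR-133b-3p (right) lie along a rising line in both groups (r of 0.87 in each), while those of the pairs that share a locus (left and middle) scatter, with Prx1 2 and Prx1 3 at the upper left of the middle panel.

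By the measure of Pearson r over the 16 libraries after subtracting each group's mean of log2 CPM, the entries outside the family most like each abundant member were listed. For miR-1a-3p they were miR-22-3p (0.74), miR-125a-5p (0.72) and miR-125b-5p (0.68), the last 2 with r of -0.25 and -0.10 inside Ocn. For miR-206-3p they were miR-541-5p (0.78), miR-196a-5p (0.75) and let-7e-5p (0.73). For miR-133a-3p they were miR-221-3p (0.78), miR-361-3p (0.77) and miR-350-3p (0.77), all below its r with miR-133b-3p (0.85). By this measure miR-1a-3p had r of 0.41 with miR-206-3p and -0.24 with miR-133a-3p, and miR-206-3p had -0.45 with miR-133a-3p. Of these 3 members, miR-133a-3p had another member, miR-133b-3p, as its nearest entry, and miR-1a-3p and miR-206-3p did not. The nearest entries of miR-133b-3p and miR-133a-5p were not listed, as their median counts were under 50. These values are descriptions, and libraries share depth and composition.

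A list of 13 other muscle microRNAs was read beside the members. Of these 5 were at 0 in all 16 libraries, among them miR-206-5p and miR-133b-5p, the opposite arms of the skeletal locus. miR-208a-3p and miR-208a-5p, made from the cardiac myosin gene Myh6 and the defining markers of heart muscle in the list, had 1 count and 0 counts in all libraries together. A total of 3 counts over all libraries would be 0.310 CPM. miR-208b-3p, from the slow myosin gene Myh7, had 91 counts in 14 libraries (4 to 13 in each Ocn and 0 to 10 in each Prx1), and miR-499-5p, from Myh7b, had 53 counts in 13 libraries. The summed level of the list was 23.5 to 44.3 CPM in Ocn and 22.3 to 65.6 CPM in Prx1, with the Ocn range inside that of Prx1. Of the list 1 passed the filter on low counts, miR-1a-1-5p, and it was not called (-0.08, SE 0.33, edgeR adjusted p = 0.879).

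The 5p arms differ between the Mir1a hairpins, unlike the 3p arm, and they were counted apart. miR-1a-1-5p, from the chromosome 2 locus, had 187 counts and miR-1a-2-5p had 19, so the former made up 90.8% of these 206 counts (95% Wilson interval 86.0% to 94.0%). Its share was 93.3% (87.3% to 96.6%) in Ocn and 87.4% (78.8% to 92.8%) in Prx1, and the intervals overlapped. Intervals cover counting error only. How far the 3p arm follows these shares cannot be read from the counts. The sequence of miR-1a-1-5p is shown as the arm that marks the chromosome 2 hairpin, with bases 2 to 8 in capitals.
miR-1a-1-5p: aCAUACUUcuuuauaugcccaua

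microRNAs of other cells were read at the same time. Of 3 shared by muscle with blood or fat, 2 were called lower in Ocn, where 7.69% of all tested were. They are near-identical entries with almost the same counts and close to 1 observation, miR-486a-5p (-0.38, SE 0.13, edgeR adjusted p = 0.0451) and miR-486b-5p (-0.38, SE 0.13, edgeR adjusted p = 0.0457), and also mark red cells. miR-378a-3p had 0.08 (SE 0.13, edgeR adjusted p = 0.766). Summed levels of the erythroid list (miR-451a and both arms of miR-144) were 5287 to 11717 CPM in Ocn and 4557 to 9397 CPM in Prx1. The log2 fold changes of these erythroid entries were 0.22 (SE 0.18) for miR-451a, 0.58 (SE 0.20) for miR-144-3p and 0.17 (SE 0.17) for miR-144-5p. All were above 0, opposite in sign to the miR-486 entries, and none was called (edgeR adjusted p = 0.440, 0.0569 and 0.585). The leukocyte list (both arms of miR-142a, and miR-223-3p) had 39067 to 94359 CPM in Ocn and 42089.9 to 68987 CPM in Prx1. The endothelial list (both arms of miR-126a) had 16712 to 20837 CPM in Ocn and 12913 to 19289 CPM in Prx1, and the smooth muscle and stromal list (miR-143-3p and miR-145a-5p) 14051 to 21848 and 11852 to 16536 CPM. Of the erythroid, leukocyte, endothelial and smooth muscle lists, 0 of 10 tested entries were called with edgeR, a number too small to set apart from the 13.7% called among all tested. The liver microRNA miR-122-5p had 3 to 19 counts in each Ocn library and 0 to 555 in Prx1, where a single library held 555 of the 584 counts. miR-122-3p was at 0. The part of any of these cells in the miR-133 difference was not tested.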

How the data were processed

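Small RNA of EVs was sequenced in 16 libraries, 6 Ocn and 10 Prx1, from an input of 1 ng, using QIAseq miRNA reagents, per the labels' protocols. The authors deposited raw counts per mature microRNA, with no normalization. That they are counts was read from the values. Per the submitters' processing notes cutadapt 1.18 and mm10 were used. The aligner, the counting tool and whether unique molecular identifiers were counted are not given in sources used here. Sex is not given per library, and p-values measure the spread between these libraries.

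Of 1915 entries, 234 passed filterByExpr and were tested with edgeR's quasi-likelihood test (version 4.0.16 under R 4.3.3; robust, with TMM scaling, Benjamini-Hochberg over all tested, threshold 0.05). Arm ratios used limma 3.58.1 over 44 hairpins. Log2 ratios had 0.5 added to each count and were tested by exact permutation over all 8008 splits. Correlations used all orders of 6 libraries or 100000 resamples of 10, with Benjamini-Hochberg within each family. For summed and single levels on library totals no p is given. Within groups 60 pairs of libraries were compared, and the lowest chi-square, divided by its degrees of freedom, was 5.04, so none was a repeat within sampling noise.

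The muscle microRNAs, the lists, the ratios and the tests were chosen with earlier results of these data known, so the ratios are not independent of the fold changes. Named entries are the members, the fixed lists, and the 3 entries with the highest group-centred Pearson r to each tested member with a median of at least 50 counts. Alternatives were DESeq2 1.42.0, voom, other factors, filters and added counts, thinned counts, depth as a covariate, a replicate block, fewer Prx1 libraries, and each library left out.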

Additional observations from a re-analysis of the deposited data

Results flagged for a closer look

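The log2 CPM of miR-133a-5p was 4.18 in Ocn 3, farther below the other 5 Ocn libraries than a sample of this size usually lies, with a gap of 0.635 of the group's range where 0.625 is the limit. The value rests on 10 counts. It was the only such case in 24 groups of values examined, and chance gives about 1 in 20. Without Ocn 3 the log2 fold change of miR-133a-5p was 0.998 (edgeR adjusted p = 0.0114).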

How the results depend on the processing

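miR-133a-3p and miR-133b-3p stayed lower in Ocn under every alternative run that gave them a value (summing them leaves none for miR-133b-3p) and lost the threshold only with depth as a covariate (-0.66 and -1.24, edgeR adjusted p = 0.191 and 0.0869), where calls over all microRNAs were 0, with 0 higher and 0 lower, and the arm ratio of miR-133a was 0.80 (limma adjusted p = 0.523). miR-206-3p passed under none. miR-1a-3p passed without a low-count filter (0.42, edgeR adjusted p = 0.0392) and with Prx1 replicates 1 to 6 only (0.50, edgeR adjusted p = 0.0413). miR-133a-5p passed with voom (0.94, limma adjusted p = 0.0175), upper quartile factors (0.91, edgeR adjusted p = 0.0483) and no filter (0.84, edgeR adjusted p = 0.0338). Calls higher in Ocn were 24 with voom and 26 with upper quartile factors, where calls lower were 11. The cause of these changes was not tested.

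With each library left out, calls higher in Ocn ran from 8 (without Prx1 2) to 20 (9 without Prx1 1 or Prx1 3), the log2 fold change of miR-133a-5p from 0.66 to 0.998, the difference of the miR-1a-3p to miR-133a-3p ratio from 0.92 to 1.14, that of miR-206-3p over miR-1a-3p from -0.76 to -0.54, that of miR-206-3p over miR-133b-3p from 0.43 to 0.84, and that of miR-1a-3p over miR-133a-5p from -0.71 to -0.17. In the libraries of overlapping depth the first ratio differed by 0.85 (adjusted exact p = 0.25) and miR-1a-3p over miR-133a-5p by 0.14 in place of -0.37, with fewer samples. The correlation of miR-1a-3p with miR-133a-3p was -0.12 in Ocn with TMM-scaled totals and 0.044 in Prx1 relative to miR-16-5p, where that of miR-133a-3p with miR-133b-3p in Prx1 was 0.76 (adjusted permutation p = 0.0635).

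The labels do not say that a shared number marks a shared litter, batch or day. Deviations of same-numbered libraries had correlations of 0.018 to 0.212, with 3 of 6 above 0.1, and 1 of 6 Ocn libraries correlated best with its own number, so the numbers were not taken as pairs. With the replicate block there were 27 calls, and miR-133a-3p had -0.70 (edgeR adjusted p = 0.0190). In 6 pairs the miR-1a-3p to miR-133a-3p difference was 1.18 (unadjusted exact p = 0.0625, adjusted exact p = 0.156). The smallest unadjusted p of this test is 0.0313.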
